A study of Homo sapiens with 24 samples.

Results

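MPP, the 1-methyl-4-phenylpyridinium ion, and paraquat, a bipyridinium herbicide, were compared directly in neurons derived from the LUHMES line. Of the 7 toxicants in the series they are the pair of pyridinium cations, and both were given at 5 µM for 6 h. The comparison sets 6 of the 24 libraries against each other, 3 per compound, over every gene that passed an expression filter, 18852 of 58051. The filter, the scaling and the estimate of spread used all 24 libraries in 8 groups. LUHMES is a single immortalised line of human mesencephalic precursors, and all cultures were differentiated with tetracycline, cAMP and GDNF before exposure. The MPP, paraquat and control cultures differed in the toxicant alone by the labels. The compounds came from DMSO stocks, and the 3 control libraries received 1% DMSO to match. Treatments were labelled as tested in triplicate, with nothing that says whether replicates came from separate differentiations. The p-values of the main fit therefore measure the spread between replicate samples, pooled over the 8 groups.

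Both compounds are flat cations built on a methylated pyridinium ring. The other ring of MPP is an uncharged phenyl group, while in paraquat it is a further methylated pyridinium, so that paraquat carries a higher charge. MPP is the active metabolite of the parkinsonism-inducing agent MPTP. It is known to enter dopaminergic neurons through the dopamine transporter, to collect in mitochondria and to inhibit complex I of the respiratory chain. Paraquat is known as a poor inhibitor of complex I and as a redox cycler: flavoenzymes reduce it to a radical that passes its electron to oxygen and forms superoxide.

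The identity of each compound rests on the compound name in the labels. To general knowledge, the chemical registry numbers given beside those names belong to other substances, an estrogen receptor antagonist that shares the abbreviation MPP and, for paraquat, tunicamycin, an inhibitor of protein glycosylation that raises HSPA5. HSPA5, the main chaperone of the endoplasmic reticulum, stood at 103, 92.8 and 126 counts per megaread (CPM) in the paraquat libraries and at 96.4, 115 and 119 CPM in DMSO. These groups overlapped. ESR1, the gene of the estrogen receptor alpha, was not among the genes tested. Which substance was added in either group was not tested.

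Counts assigned to genes ranged from 20.6 to 31.8 megareads in MPP, from 15.2 to 45.1 in paraquat and from 14.3 to 33.4 in DMSO. The MPP libraries stood apart in one respect: the 2 mitochondrial ribosomal RNAs took 4.69% to 6.91% of their counts, against 0.815% to 1.93% in the other 21 libraries of the series. Their TMM scaling factors were 0.919 to 0.953, against 0.984 to 1.04 elsewhere. CPM values below are counts per megareads of the TMM-scaled total, and every difference is MPP minus paraquat on the log2 scale unless another pair is named. A gene was called where edgeR's quasi-likelihood test gave a Benjamini-Hochberg adjusted p under 0.05. Each call was repeated under 18 alternatives, other scalings, filters, tools and fits with 1 library left out, and a call is said to have held where it passed in all of them.

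The compounds gave different transcriptomes at the same dose and time. MPP and paraquat differed in 2070 of 18852 genes, 11% of those tested, with 1139 (6.04%) higher and 931 (4.94%) lower in MPP. At least 2-fold differences were called in 85 genes (0.451%) higher and 197 (1.04%) lower. The median difference over all genes was 0.0014 and the central 90% lay between -1.07 and 0.77. Leaving out 1 library reduced the count to 1157 without MPP replicate 2, 1332 without MPP replicate 3, 1237 without paraquat replicate 1, 1324 without paraquat replicate 2 and 1268 without paraquat replicate 3. Scaled by library totals alone, which the mitochondrial ribosomal RNAs enter, 26.5% of the called genes were higher in MPP instead of 55.0%, and the median of all genes shifted to -0.09. For 12138 genes (64.4%) the 95% interval of the difference lay wholly within 2-fold. The 3 MPP and 3 paraquat libraries did not overlap in 3334 genes (17.7%) higher and 3079 (16.3%) lower in MPP, called or not.

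The same fit called 2034 genes (10.8%) between MPP and DMSO, 1088 (5.77%) higher and 946 (5.02%) lower, and 0 between paraquat and DMSO. Paraquat against DMSO had 182 genes (0.965%) with an unadjusted p under 0.05, and DESeq2 and limma-voom also called 0. At least 2-fold differences from DMSO were called in MPP in 91 genes (0.483%) higher and 206 (1.09%) lower. The 95% interval of paraquat against DMSO lay within 2-fold for 13156 genes (69.8%), and between -0.5 and 0.5 for 10080 (53.5%), beside 7066 (37.5%) of MPP against paraquat. These 2 comparisons and the values given from them share the DMSO libraries.

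**Figure D1:**
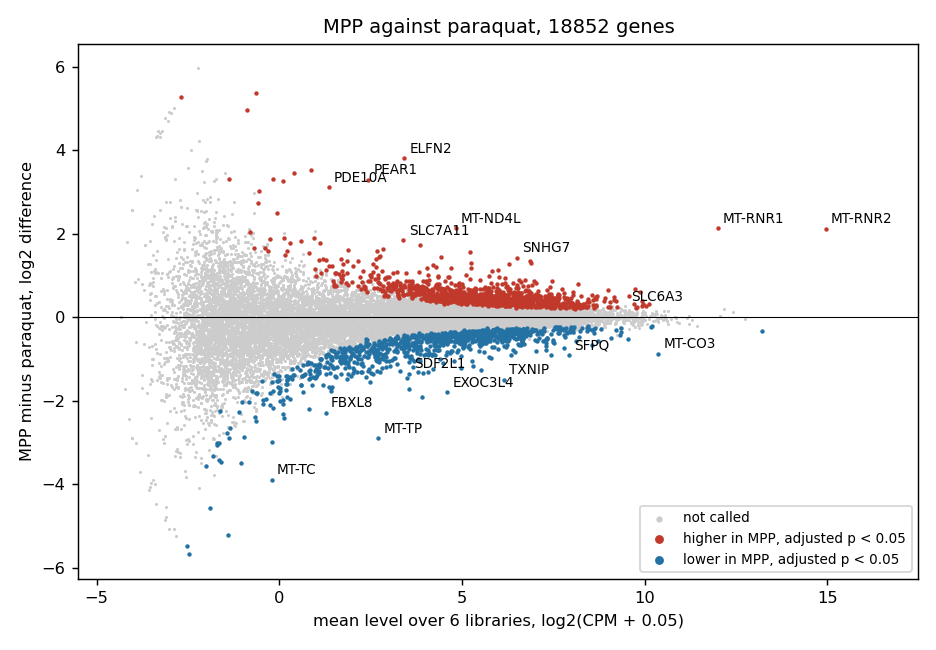
Difference between MPP and paraquat (log2, vertical) against the mean level over the 6 libraries (log2 of CPM plus 0.05, horizontal) for the 18852 genes tested, with the 1139 genes called higher in MPP in red, the 931 called lower in blue and the others in grey. ELFN2 and PEAR1 stand above 3, the 2 mitochondrial ribosomal RNAs at the right edge above 2, and MT-TP below -2.

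ELFN2, a leucine-rich repeat protein of the synapse that binds metabotropic glutamate receptors, had the largest rise among the genes named by rule. On chromosome 22 (37367960 to 37427470, GRCh38), it stood at 18.9, 25 and 15.3 CPM in MPP, at 1.85, 1.16 and 1.41 CPM in paraquat and at 0.854, 1.05 and 1.48 CPM in DMSO. The lowest MPP library was far above every paraquat library. Genes named for the largest rises or falls were taken only where the libraries did not overlap, so their separation adds no support. The difference was 3.80 ± 0.26 (SE), 14-fold, with an edgeR adjusted p of 3.66e-11, and the call held. Of the 19 tested genes of synaptic leucine-rich repeat proteins, 1 other was called, lower in MPP, and its call did not hold. PEAR1, an EGF-repeat receptor (chromosome 1, 156893698 to 156916434), stood at 10.5, 10.1 and 8.71 CPM in MPP against 0.529, 1.29 and 0.976 CPM in paraquat. The groups did not overlap, and the difference was 3.29 ± 0.31, 9.81-fold, with an edgeR adjusted p of 1.12e-08. PDE10A, a phosphodiesterase of cyclic nucleotides, stood at 3.73, 4.54 and 5.28 CPM in MPP and at 0.132, 0.589 and 0.759 CPM in paraquat, a difference of 3.11 ± 0.65 (edgeR adjusted p 0.0016). Its paraquat values rest on 2, 27 and 14 reads. PRR5L, a protein that binds the mTOR kinase complex, was higher in MPP by 1.90 ± 0.47 (edgeR adjusted p 0.00778). All these calls held.

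On the other side stood genes of low level, many of them non-coding. EXOC3L4, an exocyst-like protein on chromosome 14 (103100144 to 103110559), was the most abundant gene among the 10 named for the largest falls. Its level was 12.0, 9.59 and 10.3 CPM in MPP and 38.1, 34.0 and 39.7 CPM in paraquat, with no overlap, which the naming rule required. It was lower by 3.48-fold in MPP, -1.80 ± 0.14, with an edgeR adjusted p of 2.3e-10. FBXL8, an F-box protein of ubiquitin ligases, stood at 1.16, 0.397 and 0.844 CPM against 4.37, 4.08 and 3.31 CPM, a difference of -2.28 ± 0.38 (edgeR adjusted p 0.000114). MIR210HG, the host transcript of a hypoxia-induced microRNA, stood at 1.42, 1.66 and 0.317 CPM against 4.63, 3.71 and 3.91 CPM, with -1.76 ± 0.33 (edgeR adjusted p 0.00052). UFD1-AS1, an antisense transcript, was lower by -2.20 ± 0.35 (edgeR adjusted p 8.22e-05). All 4 calls held.

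The mitochondrial genome separated the compounds most plainly. It is transcribed from both strands as long precursors that are cut into ribosomal RNAs, messenger RNAs and transfer RNAs, with most genes read from the heavy-strand promoters. MT-RNR1, the small-subunit ribosomal RNA (chromosome M, 648 to 1601), stood at 5806, 5750 and 8492 CPM in MPP, at 1761, 1311 and 1515 CPM in paraquat and at 1734, 1255 and 1323 CPM in DMSO. The lowest MPP library was above the highest paraquat library, and paraquat overlapped with DMSO. MPP was higher by 2.13 ± 0.14, 4.37-fold, with an edgeR adjusted p of 3.58e-11. MT-RNR2, the large-subunit ribosomal RNA (1671 to 3229), stood at 43392, 45018 and 66807 CPM in MPP and at 14146, 9223 and 12298 CPM in paraquat, a difference of 2.12 ± 0.17 with an edgeR adjusted p of 8.25e-10. Together they took 5.47% ± 1.25 (SD, n = 3) of the counts in MPP and 1.34% ± 0.256 (SD, n = 3) in paraquat. The exact permutation test of that share, two-sided, gave p = 0.1, the smallest that 3 libraries against 3 allow. The RNA had been selected for poly(A) and depleted of ribosomal RNA in 2 rounds, so these are levels of what remained. The part of that step in the difference was not tested.

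The mitochondrial genome holds 13 messenger RNAs, which encode subunits of complexes I, III, IV and the ATP synthase. Of these, 9 (against 6.04% of all genes) were higher and 3 (against 4.94%) lower in MPP, with a median of 1.12. In paraquat against DMSO the median was -0.03. Their summed level was not higher in MPP, at 2223 to 2895 CPM against 2765 to 3635 in paraquat and 2844 to 2946 in DMSO. Their share of the counts was 0.211% to 0.266% in MPP and 0.276% to 0.362% in paraquat, without overlap. MT-ND4L, a complex I subunit, stood at 38.9, 46.6 and 53.3 CPM in MPP and at 7.54, 10.8 and 13.2 CPM in paraquat, a difference of 2.13 ± 0.23 (edgeR adjusted p 1.74e-07). MT-ND1 stood at 52.6, 51.5 and 64.8 CPM against 13.1, 19 and 24.7 CPM, with 1.57 ± 0.21 (edgeR adjusted p 4.78e-06). Neither gene overlapped between the groups. MT-ND2 was higher by 1.44, MT-ATP8 by 1.35, MT-ND4 by 1.34, MT-CYB by 1.31, MT-ND5 by 1.12 and MT-ATP6 by 1.10. MT-ND4L and MT-ND4, and MT-ATP8 and MT-ATP6, are read from shared transcripts with overlapping ends, so reads between them may be split or lost. All 8 of these calls held.

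MT-CO3, MT-CO1 and MT-ND3 went the other way. MT-CO3 (9207 to 9990) stood at 859, 869 and 1072 CPM in MPP, at 1590, 1500 and 2047 CPM in paraquat and at 1562, 1563 and 1575 CPM in DMSO. Every MPP library was below every paraquat library, and the difference was -0.88 ± 0.11 (edgeR adjusted p 1.47e-06). MT-ND3, the complex I subunit encoded just downstream, stood at 17.8, 16.4 and 22.9 CPM against 34.7, 48.5 and 47.2 CPM, with -1.21 ± 0.13 (edgeR adjusted p 2.84e-07). MT-CO1 stood at 552, 569 and 737 CPM against 814, 789 and 1043 CPM, with -0.51 ± 0.11 (edgeR adjusted p 0.00304), and lost the call without paraquat replicate 3 (edgeR adjusted p 0.0526). MT-CO2 was called higher, by 0.50 ± 0.14 (edgeR adjusted p 0.0173). That call was lost with library totals (0.0537), without MPP replicate 3 (0.223) and without paraquat replicate 1 (0.155).

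Counts at transfer RNA genes of the light strand were lower in MPP, while those of the ribosomal RNAs were higher. These, too, are levels of what remained after poly(A) selection. Whether the reads came from mature transfer RNAs or from precursors was not tested. Of 4 light-strand genes tested, MT-TC, MT-TY, MT-ND6 and MT-TP, 0 were higher and 3 (against 4.94% of all genes) lower. Of 14 tested heavy-strand genes 11 (against 6.04% of all genes) were higher and 3 (against 4.94%) lower. This grouping by strand was chosen after the values were seen. The 3 lower light-strand genes are the only transfer RNAs tested, so strand and transfer RNA class cannot be told apart. MT-TP, the proline transfer RNA (15956 to 16023), stood at 1.52, 1.23 and 1.90 CPM in MPP, at 11, 11.6 and 11.4 CPM in paraquat and at 17.2, 8.56 and 9.88 CPM in DMSO. It was lower by 7.45-fold in MPP, -2.90 ± 0.23, with an edgeR adjusted p of 3.93e-10. MT-TC, the cysteine transfer RNA, had 2, 0 and 5 reads in MPP and 29, 37 and 34 in paraquat (edgeR adjusted p 0.00444), and MT-TY, for tyrosine, 3, 4 and 6 against 24, 25 and 42 (edgeR adjusted p 0.00374). The call of MT-TY was lost with limma-voom (adjusted p 0.0573). MT-ND6, the light-strand messenger RNA, was not called, at -0.39 with a 95% interval of -0.96 to 0.18 (edgeR adjusted p 0.43). The other 19 of 22 mitochondrial transfer RNAs did not pass the filter. The strand setting of the counting is not given in the sources used here, and without strand the reads of overlapping genes on opposite strands cannot be told apart.

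**Figure D2:**
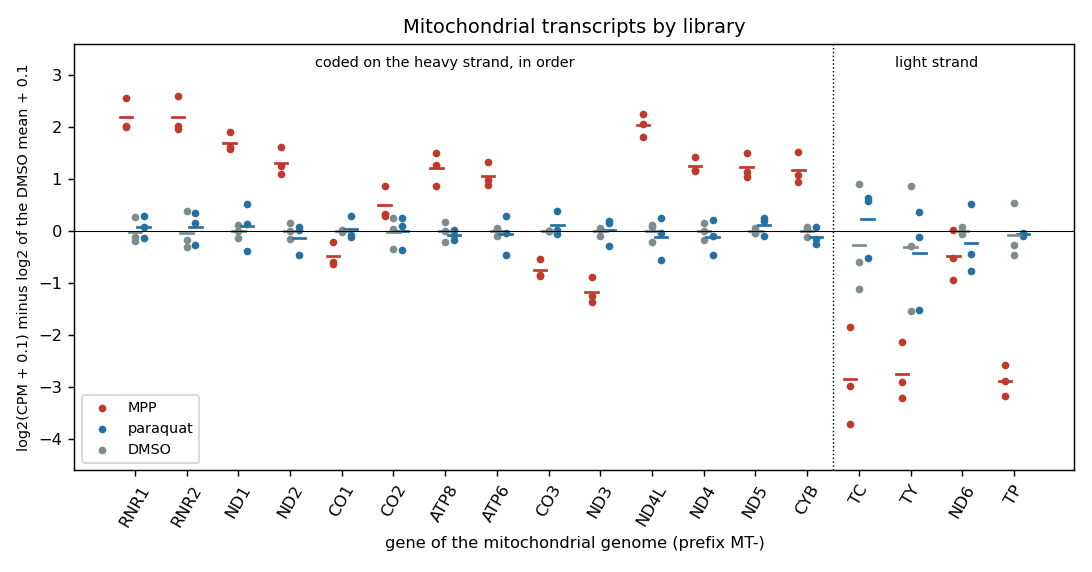
Level of the 18 tested genes of the mitochondrial genome in each MPP, paraquat and DMSO library, as log2 of CPM plus 0.1 minus the log2 of the DMSO mean plus 0.1 (vertical). Points are libraries, dashes are group means, and the dotted line parts heavy-strand from light-strand genes. MT-RNR1, MT-RNR2 and MT-ND1 are higher in all 3 MPP libraries, MT-CO3, MT-ND3 and MT-TP lower, and for these genes the paraquat points overlap with those of DMSO.

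Nuclear genes for the same organelle were called in 5.13% to 18.75% of the lists described here, beside 11% of all genes. Of 37 tested nuclear complex I subunits 0 were higher and 2 (against 4.94% of all genes) lower (median -0.10). Of 39 subunits of complexes II to V 0 were higher and 2 (against 4.94%) lower (median -0.10). NDUFC2, a complex I subunit, stood at 34.0, 32.8 and 39.8 CPM against 52.5, 51.6 and 50.9 CPM, a difference of -0.54 ± 0.13 (edgeR adjusted p 0.00562), the only one of these 4 calls that held. With library totals 9 of the 37 and 10 of the 39 were lower, and with only MPP, paraquat and DMSO in the fit 9 and 13. Among the 39, 0 were lower without MPP replicate 1 or 2 or paraquat replicate 1 or 3. The summed level of the complex I subunits was 3124 to 3321 CPM in MPP and 3474 to 3543 in paraquat, and that of the others 8129 to 8494 against 8782 to 9035, both without overlap. The interval lay within 2-fold for 33 of the 35 complex I subunits not called and for all 37 of the others. Among 28 factors of mitochondrial transcription and RNA handling 1 (against 6.04% of all genes) was higher and 1 (against 4.94%) lower. Neither call held. Of 77 mitochondrial ribosomal proteins 2 were higher and 7 (against 4.94% of all genes) lower, of which MRPS16 held, at -0.40 ± 0.07 (edgeR adjusted p 0.000386). The 7 became 10 with library totals, 1 without MPP replicate 2, paraquat replicate 2 or paraquat replicate 3, 2 without MPP replicate 3, 3 without paraquat replicate 1 and 4 without MPP replicate 1. Of 16 mitochondrial chaperones, proteases and stress signals 3 (against 6.04% of all genes) were higher and 0 lower. The 3 became 1 under library totals and without MPP replicate 1 or 2 or paraquat replicate 1 or 3. ATF5, a transcription factor of the mitochondrial stress response, held among these 3, with 44.5, 47.6 and 43.4 CPM in MPP against 36.8, 28.6 and 27.3 CPM in paraquat, 0.55 ± 0.13 (edgeR adjusted p 0.00349).

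Targets of ATF4, the transcription factor that integrates stress signals to raise amino acid supply and, with its partner DDIT3, death genes, were higher in MPP. Of 34 tested, 12 (against 6.04% of all genes) were higher and 1 lower, with a median of 0.23. In paraquat against DMSO the median was 0.06. With library totals 9 were higher, and 9 to 12 with 1 library left out, and 8 held under all alternatives. SLC7A11, the cystine transporter that feeds glutathione synthesis (chromosome 4, 138164097 to 138242349), stood at 13.8, 15.3 and 20.1 CPM in MPP, at 6.02, 4.6 and 3.09 CPM in paraquat and at 2.28, 4.6 and 4.02 CPM in DMSO. MPP did not overlap with either group, and exceeded paraquat by 1.84 ± 0.25, 3.59-fold, with an edgeR adjusted p of 6.99e-06. DDIT3, the C/EBP-homologous factor CHOP, stood at 27.4, 26.7 and 27.6 CPM in MPP against 9.39, 14 and 11.4 CPM in paraquat, a difference of 1.21 ± 0.18 (edgeR adjusted p 1.97e-05). CHAC1, which degrades glutathione, stood at 29.1, 25.8 and 23.4 CPM against 8.80, 12.8 and 10.8 CPM, with 1.26 ± 0.19 (edgeR adjusted p 4.95e-05). ATF4 itself was higher by less, at 683, 669 and 638 CPM against 439, 518 and 473 CPM, 0.48 ± 0.09 (edgeR adjusted p 0.000413). STC2, a secreted glycoprotein, SLC1A5, a glutamine carrier, PPP1R15A, which restores translation, and PSAT1, a serine synthesis enzyme, were higher by 1.07, 0.68, 0.50 and 0.36, and held. ATF3, a stress-induced factor, was higher by 0.87 ± 0.21 (edgeR adjusted p 0.00556), and lost the call without MPP replicate 2 (0.0505).

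The pathway did not move as a block. ASNS, the asparagine synthetase gene that ATF4 is known to raise, differed by 0.09 (95% interval -0.07 to 0.25), and TRIB3, a pseudokinase that restrains ATF4, by -0.11 (-0.39 to 0.18). Neither was called. Of the 20 cytosolic and 17 mitochondrial aminoacyl-tRNA synthetases, 0 were called in either direction, with medians of -0.01 and -0.04. With library totals 3 and 2 were lower. The interval lay within 2-fold for all 20 and for 16 of the 17.

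ATF4 binds composite elements shared with C/EBP factors. The letters TGATGNAA were searched on both strands of the 250 bases upstream of the start in RefSeq (GRCh38.p14), and were found in 1.5% of the promoters of tested genes, in 2 of 11 called list members with a promoter and in 1 of 18 not called. The called members that hold it are printed because they show where the element lies, 5′ to 3′ on the strand of the gene, with the match in capitals: in CHAC1 (chr15:40953221-40953470, plus strand) it begins 209 bases upstream of the start, as the reverse complement, and in ATF3 (chr1:212565157-212565406, plus strand) 191 bases upstream.
CHAC1: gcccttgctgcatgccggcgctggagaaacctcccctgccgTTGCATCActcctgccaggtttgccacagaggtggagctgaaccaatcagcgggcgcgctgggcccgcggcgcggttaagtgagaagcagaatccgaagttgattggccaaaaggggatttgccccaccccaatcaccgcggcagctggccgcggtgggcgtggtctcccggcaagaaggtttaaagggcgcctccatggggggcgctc
ATF3: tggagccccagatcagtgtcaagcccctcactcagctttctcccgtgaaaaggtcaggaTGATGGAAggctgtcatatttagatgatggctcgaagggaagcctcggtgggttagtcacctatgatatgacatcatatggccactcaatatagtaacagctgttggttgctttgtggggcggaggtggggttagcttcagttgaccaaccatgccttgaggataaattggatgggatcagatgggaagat
SLC7A11 is named only. A match describes the letters of the window.

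Genes of the endoplasmic reticulum's unfolded protein response, which fold, glycosylate and clear secretory proteins, were lower in MPP. Of 24 tested, 0 were higher and 13 (against 4.94% of all genes) lower, with a median of -0.27, while paraquat against DMSO had a median of -0.01. The count fell to 7 without MPP replicate 2 and to 8 without paraquat replicate 1 or 2, and 7 members held under all alternatives. SDF2L1, a cofactor of the reticulum's HSP70 (chromosome 22, 21642261 to 21644298), stood at 7.16, 5.41 and 7.18 CPM in MPP, at 14.3, 19 and 16.8 CPM in paraquat and at 16.4, 17.4 and 16 CPM in DMSO. It was lower by 2.56-fold, -1.36 ± 0.16, with an edgeR adjusted p of 5.28e-07. HSPA5 stood at 52.4, 60.2 and 74.5 CPM in MPP, below all 3 paraquat libraries, with a difference of -0.78 ± 0.13 (edgeR adjusted p 0.000152). DNAJC3, a co-chaperone that inhibits the kinase PERK, stood at 20.6, 23.4 and 20.6 CPM against 41.6, 42.0 and 39.9 CPM, with -0.93 ± 0.11 (edgeR adjusted p 6.37e-07). MANF, a secreted trophic factor of dopaminergic neurons, stood at 49.9, 42.7 and 48.1 CPM against 77.6, 79.3 and 81.5 CPM, with -0.76 ± 0.11 (edgeR adjusted p 1.97e-05). All these groups were separate. CRELD2, PDIA4 and PDIA3, the latter pair disulfide isomerases, were lower by -0.58, -0.57 and -0.34 and held.

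**Figure D3:**
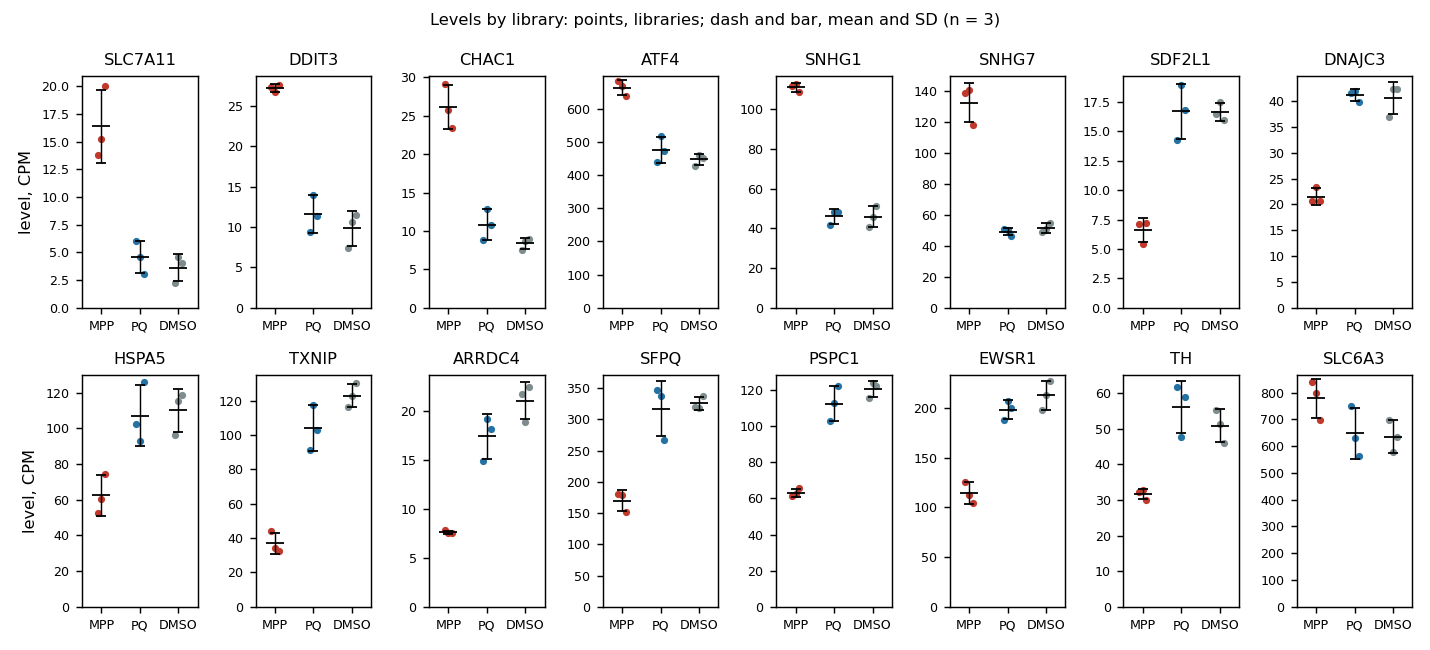
Level (CPM, vertical, linear from 0) in each MPP, paraquat (PQ) and DMSO library for 16 genes described in the text, 1 panel per gene, with points for libraries and a dash and bar for the mean and SD (n = 3). In every panel but that of SLC6A3, which was not called, the 3 MPP points lie to one side of the 3 paraquat points. Such separation was found in 17.7% of all genes with MPP higher and in 16.3% with MPP lower.

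The endoplasmic reticulum stress element joins a CCAAT box to CCACG over a spacer of 9 bases. Searched on both strands, it was present in 14 promoters of tested genes (0.110%), and in 6 of the 23 list members with a promoter, 4 of 12 called and 2 of 11 not called. The 4 called members that hold it are printed to show the position and the orientation, with the element in capitals. It begins 80 bases upstream in CRELD2 (chr22:49918384-49918633, plus strand), 66 in HSPA5 (chr9:125241344-125241593, minus strand), 194 and 89 in HSP90B1 (chr12:103930160-103930409, plus strand) and 225 in CALR (chr19:12938359-12938608, plus strand).
CRELD2: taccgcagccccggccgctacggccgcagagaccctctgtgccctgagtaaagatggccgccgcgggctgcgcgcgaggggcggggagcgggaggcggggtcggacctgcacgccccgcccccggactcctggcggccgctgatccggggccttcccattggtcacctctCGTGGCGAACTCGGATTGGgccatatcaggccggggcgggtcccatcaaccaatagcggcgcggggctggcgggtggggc
HSPA5: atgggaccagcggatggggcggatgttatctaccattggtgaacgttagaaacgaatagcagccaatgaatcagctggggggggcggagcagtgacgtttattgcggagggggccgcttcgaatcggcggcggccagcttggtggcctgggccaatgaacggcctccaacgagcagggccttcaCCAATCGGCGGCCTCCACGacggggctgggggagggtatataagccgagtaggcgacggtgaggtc
HSP90B1: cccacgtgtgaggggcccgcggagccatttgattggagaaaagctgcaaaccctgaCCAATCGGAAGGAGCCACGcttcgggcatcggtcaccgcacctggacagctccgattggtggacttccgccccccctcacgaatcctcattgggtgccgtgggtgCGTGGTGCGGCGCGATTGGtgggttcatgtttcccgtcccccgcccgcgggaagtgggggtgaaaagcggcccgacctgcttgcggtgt
CALR: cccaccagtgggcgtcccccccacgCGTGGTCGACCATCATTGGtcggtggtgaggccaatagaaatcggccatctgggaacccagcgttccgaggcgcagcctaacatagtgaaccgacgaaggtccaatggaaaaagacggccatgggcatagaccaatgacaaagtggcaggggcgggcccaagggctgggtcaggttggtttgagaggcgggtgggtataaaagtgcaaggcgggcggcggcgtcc
In HSPA5 and in the first copy of HSP90B1 the CCAAT box comes first, and in CRELD2, CALR and the other copy of HSP90B1 the element is reversed. HSP90B1, a chaperone of the reticulum, was lower by -0.28 ± 0.08 (edgeR adjusted p 0.0168), and lost the call without MPP replicate 1 (0.0673), MPP replicate 2 (0.0642) or paraquat replicate 2 (0.106). CALR, the calcium-binding chaperone calreticulin, was lower by -0.30 ± 0.09 (edgeR adjusted p 0.0268). It lost the call without MPP replicate 2 (0.119), MPP replicate 3 (0.0906), paraquat replicate 1 (0.133) or paraquat replicate 2 (0.062).

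In a list of genes for glucose sensing, the 2 genes called were targets of the sensor, both lower in MPP. TXNIP, an arrestin-like protein that inhibits glucose uptake and is a target of the sugar sensor MondoA (chromosome 1, 145992435 to 145996600), stood at 43.9, 34.4 and 32.6 CPM in MPP, at 91.4, 118 and 103 CPM in paraquat and at 116, 123 and 130 CPM in DMSO. MPP lay below both groups, and below paraquat by 2.81-fold, -1.49 ± 0.10, with an edgeR adjusted p of 3.9e-11. ARRDC4, its paralog and another MondoA target, stood at 7.82, 7.5 and 7.55 CPM against 14.9, 19.2 and 18.2 CPM, with -1.20 ± 0.14 (edgeR adjusted p 8.75e-07). Of the 5 genes in this list, these were the 2 called, and both held. Of 21 glycolytic enzymes 0 were higher and 1 lower, a call that did not hold, and the interval lay within 2-fold for all 20 others. MondoA binds E boxes. CACGTG was found in 8.66% of the promoters of tested genes and in 2 of the 5 in the list, 1 of them called, ARRDC4 (chr15:97960453-97960702, plus strand), where it begins 210 bases upstream.
ARRDC4: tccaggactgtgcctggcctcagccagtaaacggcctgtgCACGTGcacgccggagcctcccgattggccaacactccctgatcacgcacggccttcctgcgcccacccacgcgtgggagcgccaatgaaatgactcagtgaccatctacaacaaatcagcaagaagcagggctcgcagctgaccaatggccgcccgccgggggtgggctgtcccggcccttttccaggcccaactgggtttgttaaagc

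Targets of the hypoxia-inducible factors, among them glycolytic, vascular and oxygen-sensing genes, were called in 1 case between the compounds. Of 23 tested, 1 was higher and 0 lower: CXCR4, a chemokine receptor, at 111, 115 and 114 CPM against 81.3, 80.7 and 85.1 CPM, with 0.46 ± 0.09 (edgeR adjusted p 0.00125). Both groups lay below DMSO in most of the list. Against DMSO the median was -0.34 in MPP, with 8 members (against 5.02% of all genes) called lower and 0 higher, and -0.30 in paraquat, with 0 called and 7 at an unadjusted p under 0.05. All 23 were below DMSO in paraquat and 20 in MPP, beside 50.1% of all tested genes below DMSO in paraquat. These 2 counts share the DMSO libraries. PDK1, a pyruvate dehydrogenase kinase, had the lowest unadjusted p of the genes named in paraquat against DMSO (0.00096). It stood at 36.7, 39.9 and 43.0 CPM in MPP, at 45.8, 39.5 and 55.9 CPM in paraquat and at 64.5, 57.4 and 76.5 CPM in DMSO. The 2 toxicants overlapped, with a difference of -0.24 (95% interval -0.52 to 0.04), while all DMSO libraries were higher. P4HA1, a collagen prolyl hydroxylase, differed by -0.03 (-0.36 to 0.30) and LDHA, lactate dehydrogenase, by -0.16 (-0.38 to 0.06).

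Of the targets of NRF2, the factor that answers oxidants, 12.5% were called. Among enzymes that remove superoxide and peroxide 4.35% were, beside 11% of all genes. Of 32 NRF2 targets 1 (against 6.04% of all genes) was higher and 3 (against 4.94%) lower in MPP, with a median of -0.08. SLC7A11, also an ATF4 target, was the only call that held. With library totals 6 were lower, and 0 without MPP replicate 2 or paraquat replicate 1 or 3, and 1 without MPP replicate 1. Of the 28 not called, 22 had an interval within 2-fold. HMOX1, heme oxygenase, was at 24.1 ± 1.24 CPM (SD, n = 3) in MPP, 25.5 ± 0.681 in paraquat and 24.8 in DMSO, a difference of -0.09 (95% interval -0.43 to 0.25). TXNRD1, thioredoxin reductase, differed by -0.14 (-0.28 to 0.01) and GSR, glutathione reductase, by 0.14 (-0.07 to 0.35). Of 23 tested enzymes that remove superoxide and peroxide, 0 were higher and 1 lower, MSRB2, a methionine sulfoxide reductase, by -0.39 ± 0.10 (edgeR adjusted p 0.00839). Its call was lost without MPP replicate 3 (0.051) or paraquat replicate 3 (0.0637). With library totals 6 were lower. PRDX2 and PRDX5, peroxiredoxins, were lower under 5 and 3 alternatives, by -0.35 and -0.34 with library totals. The summed level of these enzymes was 2462 to 2619 CPM in MPP and 2747 to 2837 in paraquat, without overlap. For 21 of the 22 others the interval lay within 2-fold. SOD1 and SOD2, the superoxide dismutases, differed by -0.14 (-0.30 to 0.02) and -0.11 (-0.29 to 0.08).

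Flavoenzymes that can pass an electron to paraquat were tested in 15 of 21 cases, with 1 higher and 0 lower, and 2 lower with library totals. POR, the cytochrome P450 reductase, stood at 67.5, 70.0 and 51.3 CPM in MPP and 85.5, 67.3 and 68.7 CPM in paraquat, overlapping groups that differed by -0.22 (95% interval -0.49 to 0.04). NQO1, a quinone reductase, differed by -0.03 (-0.30 to 0.23) and CYB5R1, a cytochrome b5 reductase, by -0.22 (-0.42 to -0.03, edgeR adjusted p 0.133). DUOX1, a peroxide-forming oxidase, was higher by 0.93 ± 0.23 (edgeR adjusted p 0.00668), at 9.93, 10.8 and 8.66 CPM against 3.37, 5.84 and 6.02 CPM. Without paraquat replicate 1 its call was lost (0.0619).

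Of the 19 transporters listed for organic cations and monoamines, 14 were tested and 0 called, and 7 of the 14 had an interval within 2-fold. Under the alternatives up to 3 were called higher and up to 1 lower. SLC6A3, the dopamine transporter (chromosome 5, 1392790 to 1445430), stood at 840, 798 and 698 CPM in MPP, at 750, 630 and 562 CPM in paraquat and at 697, 578 and 632 CPM in DMSO. The groups overlapped, and the difference was 0.27 (95% interval 0.03 to 0.50, edgeR adjusted p 0.136). SLC6A3 was called higher in MPP with no expression filter (edgeR adjusted p 0.0207). It was also called with only MPP and paraquat in the fit (0.0442) and with DMSO added (0.0402). SLC29A4, the plasma membrane monoamine transporter, stood near 58 CPM in MPP and 56.1 in paraquat, a difference of 0.05 (-0.26 to 0.36). SLC7A5, an amino acid carrier that is also an ATF4 target, differed by 0.34 (0.01 to 0.67, edgeR adjusted p 0.186). It was called higher under the same alternatives as SLC6A3 (edgeR adjusted p 0.0487, 0.0173 and 0.0154). SLC22A2 and SLC22A3, organic cation transporters, had 0 reads in all 9 libraries of MPP, paraquat and DMSO, and SLC18A2, the vesicular monoamine transporter, reached at most 1.08 CPM.

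**Figure D4:**
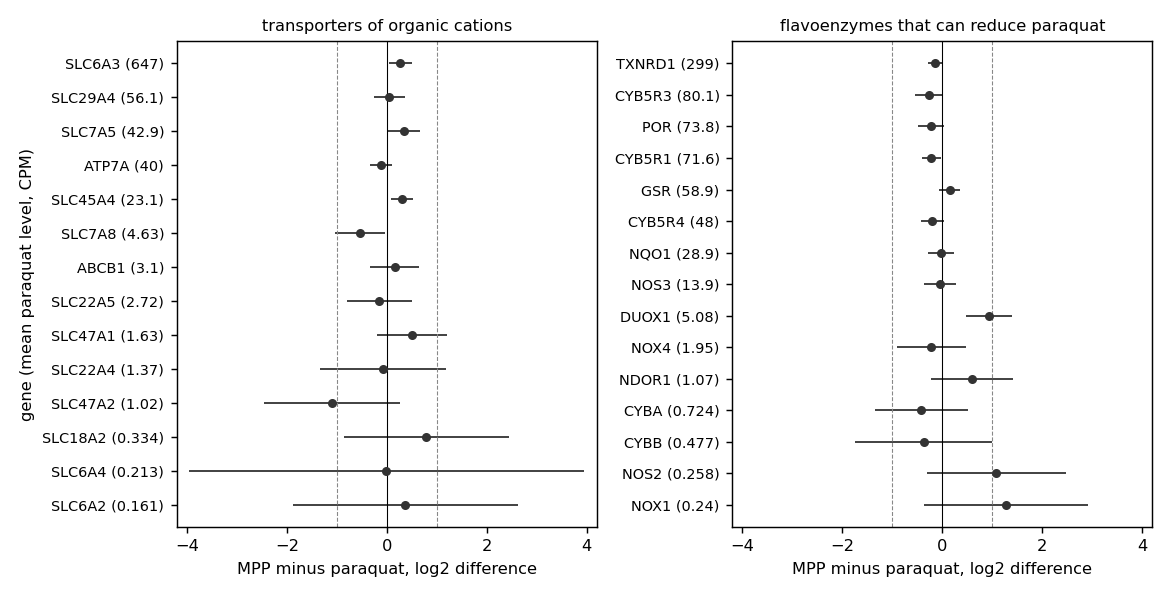
Difference between MPP and paraquat (log2, horizontal) with its 95% interval for the 14 tested transporters of organic cations (left) and the 15 tested flavoenzymes (right), each ordered by its mean level in paraquat (CPM, in parentheses). Dashed lines mark 2-fold, and the intervals of SLC6A3, SLC29A4, TXNRD1, POR and NQO1 lie between them, while those of genes near or under 1 CPM are wide.

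Metallothioneins are zinc-binding proteins to which the title of the series points. Of 8 tested 0 were called, with a median of 0.74, and the interval lay within 2-fold for 1. MT1G had 48, 58 and 64 reads in MPP, 32, 0 and 50 in paraquat and 0, 1 and 1 in DMSO. Paraquat overlapped with both other groups, with replicate 2 at 0 reads, and the difference from MPP was 0.95 (95% interval -0.98 to 2.87, edgeR adjusted p 0.599). Without paraquat replicate 2 the difference was -0.11. With no expression filter 3 metallothioneins were called higher in MPP, MT1G (edgeR adjusted p 0.000313), MT1E by 0.88 (0.0116) and MT2A by 0.68 (0.0298).

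The next 3 lists, small nucleolar RNA hosts, DBHS and FET proteins and replication-dependent histones, were chosen after their values were seen and show no independent support. Hosts of small nucleolar RNAs, spliced transcripts that carry guide RNAs for ribosomal RNA in their introns, were higher in 9 of 25 (against 6.04% of all genes) and lower in 0, with a median of 0.25. SNHG7 (chromosome 9, 136721366 to 136728184) stood at 138, 140 and 118 CPM in MPP, at 50.8, 50.2 and 46.5 CPM in paraquat, and differed by 1.43 ± 0.12, 2.69-fold, with an edgeR adjusted p of 8.25e-10. SNHG1 stood at 112, 113 and 109 CPM against 41.5, 48.2 and 48.1 CPM, with 1.27 ± 0.12 (edgeR adjusted p 1.12e-08). SNHG5, SNHG15, GAS5 and SNHG32 were higher by 0.75, 0.48, 0.46 and 0.42, and held with the former pair. Of 6 DBHS and FET proteins, RNA-binding proteins of paraspeckles and splicing, 3 (against 4.94% of all genes) were lower and all 3 held. SFPQ stood at 180, 179 and 151 CPM against 347, 338 and 267 CPM, lower by 1.87-fold (-0.90 ± 0.08, edgeR adjusted p 1.44e-08). PSPC1 and EWSR1 were lower by -0.83 ± 0.09 and -0.79 ± 0.08. NONO, the partner of SFPQ, was not called, at 0.10 (95% interval -0.04 to 0.24). Replication-dependent histone genes, whose messenger RNAs mostly lack poly(A) tails, were lower in 9 of 51 (against 4.94% of all genes) and higher in 0, with a median of -0.50. The count fell to 5 without MPP replicate 1, 4 without paraquat replicate 1 and 6 without MPP replicate 3. H2BC26, H2BC8, H3C6 and H2BC21 held, at -1.28, -1.12, -0.84 and -0.52.

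LincRNA and antisense genes were called lower in MPP more often than higher. By GENCODE 29 gene type, 1090 of 14431 protein-coding genes (7.55%) were higher and 698 (4.84%) lower, with a median of 0.03. Of 2494 lincRNA and antisense genes 22 (0.882%) were higher and 164 (6.58%) lower, beside 6.04% and 4.94% of all genes, with a median of -0.31. This grouping, too, was chosen after the values were seen. The strand setting of the counting is not given, so counts of antisense genes may hold reads of overlapping genes on the other strand. The count of lower genes fell to 104 without MPP replicate 2, 105 without MPP replicate 3 and 108 without paraquat replicate 2. Among those at 5 CPM and over, 61 of 246 (24.8%) were lower and 15 higher, beside 5.87% lower among the 10758 protein-coding genes of that level. Their summed level was 6288, 6223 and 6467 CPM in MPP, 7055, 6952 and 6997 CPM in paraquat and 7112, 6903 and 7052 CPM in DMSO. All MPP libraries were below the others. Of the genes lower by at least 2-fold, 58 of 197 (29.4%) were protein-coding, beside 76.5% of all tested, and their median span in the genome was 4.22 kb, beside 25 kb.

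Divergent transcripts start back to back with a coding gene and are in general short-lived. Of 315 tested, a list chosen after values were seen, 1 was higher and 40 were lower (against 4.94% of all genes and 6.58% of lincRNA and antisense genes), with a median of -0.49 in this comparison and of 0.05 in paraquat against DMSO. The count of lower members was 24 without MPP replicate 3 and between 27 and 38 for each other library left out. MARCHF6-DT stood at 2.34, 2.24 and 2.9 CPM in MPP against 5.62, 6.32 and 6.35 CPM in paraquat, with no overlap and a difference of -1.31 ± 0.23 (edgeR adjusted p 0.000335). Its partner MARCHF6, a ubiquitin ligase of the endoplasmic reticulum, differed by 0.18. CAMSAP1-DT differed by -1.63 ± 0.38 and its partner by 0.10. DNAJC3-DT was lower by -1.18 ± 0.19 beside a partner that was lower as well, DNAJC3 of the endoplasmic reticulum. Over the 40 lower transcripts, the partner was higher in 5, lower in 2 and not called in 33. The median was -1.09 for these transcripts and 0.16 for the partners. The unknown strand setting also limits these values where a transcript overlaps a gene on the other strand.

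Signalling and death genes were called in 15.8% to 31.25% of the lists described here, beside 11% of all genes, and part of these calls held. Of 16 phosphatases and other feedback inhibitors of MAP kinases 5 (against 6.04% of all genes) were higher and 0 lower, with 3 higher without MPP replicate 2 or 3 or any 1 of the paraquat libraries. DUSP5 stood at 23.4, 23.4 and 22.3 CPM against 10.1, 10.6 and 9.66 CPM, with 1.18 ± 0.15 (edgeR adjusted p 1.47e-06), and DUSP16 and DUSP1 were higher by 0.62 and 0.48. These 3 held. Of 19 immediate early genes 2 (against 6.04% of all genes) were higher and 1 (against 4.94%) lower. NR4A1, a nuclear receptor, held at 1.28 ± 0.22 (edgeR adjusted p 0.000149), KLF10 held at -0.45, and the other was ATF3. Of 25 p53 targets 6 (against 6.04% of all genes) were higher and 1 lower, with a median of 0.18. The 6 became 3 with library totals and without MPP replicate 2, paraquat replicate 1 or paraquat replicate 2. TNFRSF10B, a TRAIL death receptor that DDIT3 also raises, held at 120, 118 and 116 CPM against 80.2, 81.5 and 75.8 CPM, 0.57 ± 0.08 (edgeR adjusted p 2.27e-05), and CCNG1, a cyclin, at 0.56. Of 15 BCL2 family genes 3 (against 6.04% of all genes) were higher and 1 lower, and 0 held. The 3 became 1 without MPP replicate 2 or any 1 of the paraquat libraries. PMAIP1, a BH3-only death protein, was higher by 0.70 ± 0.18 (edgeR adjusted p 0.00793), and lost the call without paraquat replicate 3 (0.0591).

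Of 25 genes of cholesterol synthesis and uptake 4 (against 6.04% of all genes) were higher and 4 (against 4.94%) lower. Of the former 1 was called with library totals, and 2 without any 1 of the MPP libraries, paraquat replicate 1 or paraquat replicate 2. Of the latter 2 were called without paraquat replicate 3. TM7SF2, a sterol reductase, held at -0.90 ± 0.11 (edgeR adjusted p 1.27e-06), ACAT2 at -0.31 and SREBF2, the transcription factor of the pathway, at 0.37. Of 33 genes of autophagy and the lysosome 4 (against 6.04% of all genes) were higher and 1 lower, with 2 higher under library totals. CTSL, a lysosomal protease, held at 0.54 ± 0.10 (edgeR adjusted p 0.000522). TFRC, the transferrin receptor, was the only one called of 12 iron-handling genes, higher by 0.60 ± 0.11 (edgeR adjusted p 0.000436). TUBA1A was the only one called of 12 tubulins, at -0.34 ± 0.08 (edgeR adjusted p 0.00331). Both held. With library totals 6 tubulins were lower, and their summed level was 12120 to 12841 CPM in MPP and 14540 to 15219 in paraquat. Among 20 heat shock targets 1 was higher and 1 lower, among 31 proteasome subunits 0 and 1, and among 17 clock genes 2 and 0, and 0 of these 5 calls held. With library totals 8 proteasome subunits were lower, and their summed level was 4297 to 4430 CPM in MPP and 4591 to 4767 in paraquat. Among 85 cytosolic ribosomal proteins 0 were called, and the interval lay within 2-fold for 83.

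**Figure D5:**
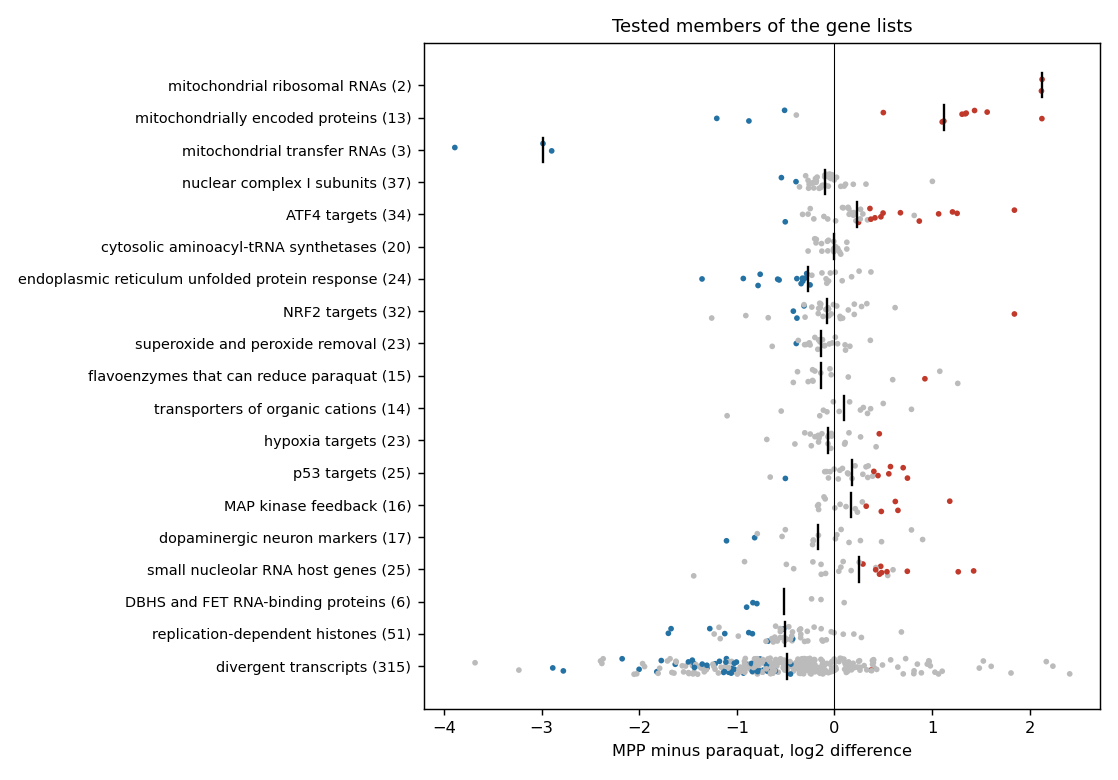
Difference between MPP and paraquat (log2, horizontal) for each tested member of 19 gene lists, with the number tested in parentheses and a black dash at the median. Members called higher are red, called lower blue and not called grey: the 12 red points of the ATF4 targets lie to the right and the 13 blue points of the endoplasmic reticulum list to the left.

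The labels describe dopaminergic neurons, and the cells held some of the defining markers. SLC6A3 was abundant, whereas FOXA2 and LMX1A, transcription factors of midbrain identity, were at 0 reads. The summed level of the 17 tested of 20 dopaminergic markers was 977 to 1122 CPM in MPP, 909 to 1074 in paraquat and 920 to 1015 in DMSO. SLC6A3 alone made up 698 to 840 CPM of it in MPP and 562 to 750 in paraquat. Of 17 tested, 0 were higher and 2 (against 4.94% of all genes) lower, with a median of -0.16, and 5 were lower with only these groups in the fit. TH, tyrosine hydroxylase, which makes the precursor of dopamine (chromosome 11, 2163929 to 2171877), stood at 32.1, 32.8 and 30.0 CPM in MPP, at 61.6, 47.7 and 58.9 CPM in paraquat and at 55.2, 51.4 and 45.9 CPM in DMSO. All MPP libraries were lower, and the difference was -0.82 ± 0.13 (edgeR adjusted p 0.000105), which held. In these bulk samples fewer cells of a type and less RNA per cell cannot be told apart. Of 22 pan-neuronal markers 2 were higher and 2 lower, with 0 held, and their summed level was 9930 to 11197 CPM in MPP and 10006 to 11336 in paraquat. Of 17 genes of familial parkinsonism 0 were higher and 2 (against 4.94% of all genes) lower. Of 68 voltage-gated channels 2 were higher and 1 lower, with SCN8A, a sodium channel, held at 0.67 ± 0.12 (edgeR adjusted p 0.000253). Of 18 growth factors and neuropeptides 3 (against 6.04% of all genes) were higher and 2 (against 4.94%) lower, with SCG2, a granin, held at 0.47. The 3 became 1 without MPP replicate 1 or any 1 of the paraquat libraries, and the 2 lower became 0 without MPP replicate 3.

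Markers of other cells were checked in the same libraries. Of 22 markers of cycling cells 4 (against 6.04% of all genes) were higher and 2 (against 4.94%) lower. The 4 became 1 with library totals and without MPP replicate 2 or 3 or paraquat replicate 2 or 3. Their summed level was 1123 to 1188 CPM in MPP and 988 to 1135 in paraquat. Of 11 neural precursor markers 1 was higher, and the sum was 331 to 388 CPM against 293 to 328. Of 11 tested astrocyte and oligodendrocyte markers 1 was higher, SLC1A3, a glutamate transporter, at 10.4, 11.2 and 8.02 CPM against 3.77, 4.12 and 2.71 CPM, with 1.47 ± 0.24 (edgeR adjusted p 0.000106). Their sum was 201 to 206 CPM against 200 to 208, with SOX10 at 0 reads. Of 15 markers of immune, vascular, stromal, blood and epithelial cells 8 were tested and 1 was higher. The 8 tested summed to 8.84 to 10.9 CPM in MPP and 5.29 to 6.45 in paraquat, and CD68 and HBB were at 0 reads. The part of these cells in the differences was not tested.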

How the data were processed

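RNA sequencing counts of 24 libraries from differentiated LUHMES cells were used, 3 for each of 8 groups. Per the labels' protocols, RNA was selected for poly(A), depleted of ribosomal RNA in 2 rounds and sequenced as TruSeq libraries. Per the submitters' processing notes, STAR, HTSeq, DESeq and GRCh38 were used; the annotation, strand setting, versions and treatment of multiply mapped reads are not stated there. Raw counts per gene were deposited by the authors, with 0 columns lacking a sample. Their normalized matrix was not used here.

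The counts were filtered with filterByExpr (18852 of 58051 genes kept), scaled by TMM and fitted with edgeR 4.0.16 (quasi-likelihood, 1 coefficient per group, 16 residual degrees of freedom) over all 24 libraries. Benjamini-Hochberg adjusted p under 0.05 was a call. SE is that of the fit, and intervals are at 95%. Identifiers of 56948 genes matched a name, and coordinates came from GENCODE 29, with 90 tested genes left without. Promoters came from RefSeq (GRCh38.p14). Tools were R 4.3.3, DESeq2 1.42.0 and limma 3.58.1, and Python 3.11.15 with matplotlib 3.10.9, pandas 2.3.3 and numpy 2.4.6. The procedure was tested on simulated data.

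The comparison, the 42 gene lists and the naming rule were chosen with earlier results of these data known, and 4 further lists after the values were seen. Named genes were up to 10 higher and 10 lower by size among called genes whose libraries did not overlap and whose higher group averaged 2 CPM or more, up to 6 called and 3 other members of each list, all genes of the mitochondrial genome, metallothioneins, cation transporters and flavoenzymes, the 5 genes of lowest p in paraquat against DMSO, and 5 genes closest in pattern to ELFN2, not described here. ASNS, TRIB3, STC2, PSAT1, PDIA3, CALR, HSP90B1, HMOX1, SOD1, SOD2 and MARCHF6 lie outside that rule and were chosen after their values were seen. Counts per library limit the precision of genes of a few reads, and SDs and intervals cover the spread between libraries. Alternatives were RLE or library-total scaling, TMM without mitochondrial genes, no filter, DESeq2, limma-voom, fits to 2 or 3 groups, a replicate block and each library left out in turn. Some results are not reported here.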

Additional observations from a re-analysis of the deposited data

How the results depend on the processing

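Of 153 named genes called, 85 held under all 18 alternatives, 68 lost the call under at least 1, and 0 reversed. Of 159 not called, 41 were called under at least 1. The number of genes differing between MPP and paraquat was 3541 with only these groups in the fit and 4027 with DMSO added, higher 1871 and 2123, lower 1670 and 1904, at least 2-fold 448 in the latter. For genes differing between MPP and DMSO these fits gave 3983 and 3986. Scaling by library totals gave 579 higher and 1608 lower, where the mitochondrial ribosomal RNAs enter the totals of the MPP libraries. Without the expression filter 3 genes differed between paraquat and DMSO, MT1G, MT1E and MT1M. The cause was not tested for the counts of the smaller fits. RLE scaling gave 2052 genes, TMM without mitochondrial genes 2039, no filter 1939, DESeq2 2660 (3655 adjusted p not given) and limma-voom 2460.

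With 1 library left out, the genes differing between MPP and paraquat ranged from 1157 to 1928, higher from 657 to 1066, lower from 500 to 862, at least 2-fold from 199 to 267, and between MPP and DMSO from 1142 to 1962; paraquat against DMSO stayed at 0. The difference in mitochondrial ribosomal RNA share ranged from 3.40 to 4.52 percentage points. With the replicate number as a block, 1879 genes were called, 1863 of them shared. Deviations of same-numbered MPP and paraquat libraries correlated at -0.014, 0.0031 and 0.047. For paraquat and DMSO the values were 0.070, 0.0094 and 0.011, and for MPP and DMSO -0.015, 0.023 and -0.0058. With 3 libraries per group, these values cannot tell whether same-numbered libraries shared a batch or a differentiation. Depth limits genes of a few reads, such as mitochondrial transfer RNAs.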
